A study of Mus musculus with 12 samples.

Results

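The genes described here encode receptors for insulin and the insulin-like growth factors (IGFs), and proteins that carry the signal inside the cell. The receptors are Insr, Igf1r and Igf2r, of which Igf2r clears IGF-2. The others are the substrates Irs1 and Irs2, the PI3-kinase regulatory subunit Pik3r1, the kinases Akt1 and Akt2, and the transcription factors Foxo1 and Foxo3. These genes were chosen by symbol and are 10 of the 24421 genes in the count files. All 10 were present and passed the filter on low counts, among 13102 genes tested.

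Insulin and IGF-1 bind related receptor tyrosine kinases, which phosphorylate the IRS adaptors. These recruit PI3-kinase, whose lipid product activates AKT, and AKT in turn phosphorylates FOXO factors and keeps them out of the nucleus. In beta cells, which both secrete insulin and carry its receptor, the IRS2 branch is known for sustaining cell mass, and FOXO1 for opposing Pdx1.

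Messenger RNA was counted in Min6, a mouse beta-cell line derived from an insulinoma and labelled wild type. Cells carried a knockdown adenovirus against Il22ra1 (sh-Il22ra1, 6 libraries) or a control adenovirus (sh-ctrl, 6 libraries, titled GFP) for 48 h. All 12 libraries received 0.3 mM palmitate, a saturated fatty acid, for 24 h. The comparison is therefore of the virus against Il22ra1, an interleukin-22 receptor chain, with the control virus in palmitate-treated cells. It holds no untreated or uninfected group. Receptor protein is not measured by these counts, and effects of receptor loss, virus and hairpin cannot be told apart. In the treatment field, the gene number counts upward over sh-Il22ra1 replicates 2 to 6, and these libraries were kept in the group their titles give. The labels do not say how many hairpins or clones were used, nor whether samples sharing a treatment came from different dishes of cells; p-values therefore describe variation among these 12 libraries, and part of it may be technical.

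Reads in genes ranged from 14408576 to 15595603 in sh-Il22ra1 and from 13108494 to 15887448 in sh-ctrl. The target, Il22ra1 (chromosome 4, 135728172 to 135752140, plus strand), had 1 to 4 reads per sh-Il22ra1 library and 7 to 20 per sh-ctrl library, too few for the test across genes; a two-sided exact permutation test on its level gave p = 0.00216, the smallest that 6 against 6 libraries allow. Of the 12 beta-cell markers all were detected, with 3 higher and 5 lower in sh-Il22ra1 (all tested genes: 25.4% higher, 26.5% lower). Their summed level, in reads scaled to library size (CPM), was 64985 to 74192 CPM in sh-Il22ra1 and 72315 to 108890 CPM in sh-ctrl. Markers of leukocytes, fibroblasts, acinar cells and endothelial cells were low. The leukocyte list summed to 5.83 to 9.58 CPM in sh-Il22ra1 and 18.6 to 27.2 CPM in sh-ctrl, nearly all of it Cd68, with Ptprc and Cd3e near 0. The fibroblast list summed to 1.04 to 2.13 CPM in sh-Il22ra1 and 3.09 to 6.34 CPM in sh-ctrl, the acinar list reached 1.03 CPM at most, and the endothelial list 8.16 CPM. The other islet hormones, mostly Gcg, summed to 145 to 158 CPM in sh-Il22ra1 and 243 to 295 CPM in sh-ctrl. Reads without an alignment took 8.71% to 11.8% of sh-Il22ra1 files and 12.8% to 17.3% of sh-ctrl files, and were highest in sh-ctrl replicates 4 (17.3%) and 1 (16.3%). The part of these measures in the results was not tested.

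Of the 10 genes, 4 were lower in sh-Il22ra1 (Igf1r, Irs1, Pik3r1 and Akt1), 1 was higher (Foxo3), and Insr, Igf2r, Irs2, Akt2 and Foxo1 did not pass. The calls come from the quasi-likelihood test of edgeR at a Benjamini-Hochberg adjusted p under 0.05, which called 51.9% of all tested genes, 25.4% higher and 26.5% lower. A share of 5 in 10 is therefore near the background. The median log2 fold change of the 10 was -0.10, against -0.0043 over all tested genes, and the median of its size was 0.31, against 0.26. In none of the 10 were the groups apart in every library, a separation seen in 28.1% of tested genes, 13.5% with sh-Il22ra1 higher and 14.6% with it lower. In bulk RNA, fewer cells that express a gene and less of its RNA per cell cannot be told apart.

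**Figure D1:**
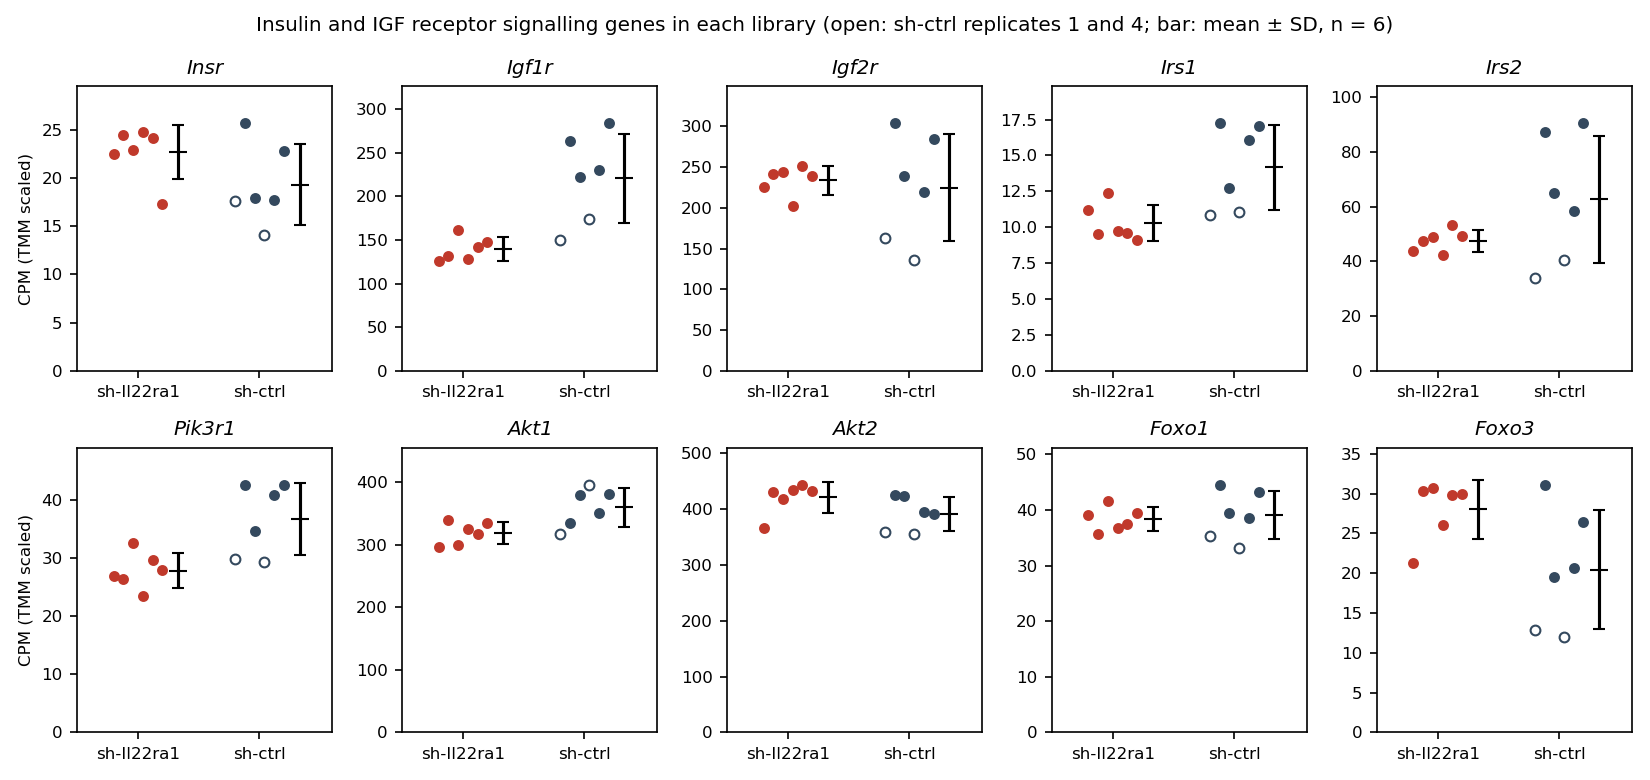
Level of each gene in every library, in CPM (linear axis from 0). Points are libraries, with sh-ctrl replicates 1 and 4 open, and bars give the mean ± SD (n = 6 per group); Igf1r was lower in 5 sh-Il22ra1 libraries than in any sh-ctrl library, and sh-ctrl spread more widely than sh-Il22ra1 for all 10 genes.

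The control libraries differed from one another more than the knockdown libraries did. The coefficient of variation was larger in sh-ctrl for all 10 genes, as it was for 71.7% of tested genes. In 9 of the 10, all but Akt1, the lowest pair of sh-ctrl libraries was replicates 1 and 4, a pattern found in 21.3% of all tested genes and in 53.0% of the 1595 tested genes whose reference transcript has at least 6000 bases. Most of the 10 have long transcripts, from 2690 bases in Akt1 to 11409 in Igf1r, against a median of 2993 over tested genes, and 8 of them exceed 6000. Such long genes had a median log2 fold change of -0.19, with 38.2% lower and 9.34% higher. For this reason each gene is also given without sh-ctrl replicates 1 and 4 and with a correction for transcript length and GC content, both chosen with results of these data known. These fits moved the long genes as a class in opposite directions. Their median log2 fold change was -0.31 without sh-ctrl replicates 1 and 4, and -0.033 with the correction. Over all tested genes it was -0.016 and -0.0081.

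Igf1r, the receptor for IGF-1, fell most among the 10. Its position is chromosome 7, 67952827 to 68233668, plus strand (GRCm38). It had a lowest, median and highest value of 125.9, 137 and 161 CPM in sh-Il22ra1, against 151, 226 and 284 CPM in sh-ctrl. Only 1 sh-Il22ra1 library, replicate 3, reached into the sh-ctrl range, where replicates 1 and 4 were lowest. Means were 139.7 ± 13.5 CPM in sh-Il22ra1 and 221 ± 51.0 CPM in sh-ctrl (SD, n = 6 each), a log2 fold change of -0.66 (SE 0.121, edgeR adjusted p = 0.000174), or 1.58-fold lower. The call held under all 22 alternatives, with values from -0.85 to -0.47. It was -0.85 without sh-ctrl replicates 1 and 4, and -0.47 after the length and GC correction.

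Insr, the insulin receptor (chromosome 8, 3122061 to 3279617, minus strand), did not pass. It ran from 17.3 through a median of 23.6 to 24.7 CPM in sh-Il22ra1, against 14.1, 17.8 and 25.7 CPM in sh-ctrl. Of the sh-Il22ra1 libraries 5 lay above the sh-ctrl median, and replicate 6 lay below it. Its log2 fold change was 0.23 with a 95% interval of -0.03 to 0.49 (SE 0.124, edgeR adjusted p = 0.130). Insr passed at 0.40 (adjusted p = 0.000581) after the length and GC correction and at 0.33 (adjusted p = 0.0226) when sh-ctrl replicate 2 was left out, and was 0.09 without sh-ctrl replicates 1 and 4.

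Igf2r, the cation-independent mannose 6-phosphate receptor that clears IGF-2 and sorts lysosomal enzymes, did not pass either. Igf2r (chromosome 17, 12682406 to 12769664, minus strand) gave 202, 239.8 and 251 CPM in sh-Il22ra1, against 136, 229 and 304 CPM in sh-ctrl. The sh-Il22ra1 libraries all fell inside the wide sh-ctrl range. Igf2r gave 0.06 on the log2 scale, with a 95% interval of -0.24 to 0.36 (SE 0.144, edgeR adjusted p = 0.760). Its direction depended on the fit: it was lower without sh-ctrl replicates 1 and 4 (-0.18, adjusted p = 0.0345) and higher after the length and GC correction (0.25, adjusted p = 0.00668).

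Both receptor substrates had lower means in sh-Il22ra1, and Irs1 passed the test. Irs1 (chromosome 1, 82233101 to 82291416, minus strand) was the least abundant of the 10 in reads, with 133 to 192 reads per sh-Il22ra1 library and 141 to 276 per sh-ctrl library. Its level was 9.12, 9.67 and 12.4 CPM in sh-Il22ra1, against 10.8, 14.4 and 17.2 CPM in sh-ctrl, with 4 sh-Il22ra1 libraries below every sh-ctrl library. Irs1 had a log2 fold change of -0.47 (SE 0.129, edgeR adjusted p = 0.00511), and the call held under all 22 alternatives, from -0.64 without sh-ctrl replicates 1 and 4 to -0.30 after the length and GC correction. Of its exon bases 30.9% overlap the predicted gene Gm9747 on the other strand, so without a stated strand setting its reads are uncertain.

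Irs2 (chromosome 8, 10984681 to 11008458, minus strand), the main IRS adaptor known for beta cells, gave 42.4, 48.2 and 53.4 CPM in sh-Il22ra1, against 34.1, 61.8 and 90.5 CPM in sh-ctrl. All 6 sh-Il22ra1 libraries lay below the sh-ctrl median, yet sh-ctrl replicates 1 and 4 lay below every sh-Il22ra1 library. The log2 fold change was -0.40 (95% interval -0.78 to -0.03, SE 0.179), which did not pass (edgeR adjusted p = 0.0677). It passed without sh-ctrl replicate 1 (-0.53, adjusted p = 0.00623), without replicate 4 (-0.51, adjusted p = 0.00858) and without both (-0.68, adjusted p = 2.62e-07), but was -0.17 (adjusted p = 0.266) after the length and GC correction.

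Pik3r1, which encodes p85alpha, the subunit that docks PI3-kinase on IRS proteins, fell. Pik3r1 (chromosome 13, 101680563 to 101768217, minus strand) had 23.6, 27.5 and 32.7 CPM in sh-Il22ra1, against 29.4, 37.9 and 42.7 CPM in sh-ctrl. In 4 sh-Il22ra1 libraries it was below every sh-ctrl library. The log2 fold change was -0.40 (SE 0.104, edgeR adjusted p = 0.00370), or 1.32-fold lower, and held under all 22 alternatives, from -0.54 without sh-ctrl replicates 1 and 4 to -0.27 after the length and GC correction.

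Igf1r, Irs1 and Pik3r1 were thus the genes that passed, lower in sh-Il22ra1, in every fit tried, and their promoters are shown for that reason. Each line gives the 250 bases before the start annotated in RefSeq on GRCm38.p6, 5′ to 3′ on the gene's strand. For Igf1r and Irs1 that start lies upstream of the gene positions given above. Capitals mark matches to the GC box GGGCGG, the core of the motif bound by SP1-type factors.
Igf1r, chr7:67952007-67952256, plus strand: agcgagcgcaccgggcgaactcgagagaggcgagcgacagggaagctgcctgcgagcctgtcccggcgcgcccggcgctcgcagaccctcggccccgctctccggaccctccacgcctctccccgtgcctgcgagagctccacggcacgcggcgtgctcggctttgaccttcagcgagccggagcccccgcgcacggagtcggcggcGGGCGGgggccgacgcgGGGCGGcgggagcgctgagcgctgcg
Irs1, chr1:82291440-82291689, minus strand: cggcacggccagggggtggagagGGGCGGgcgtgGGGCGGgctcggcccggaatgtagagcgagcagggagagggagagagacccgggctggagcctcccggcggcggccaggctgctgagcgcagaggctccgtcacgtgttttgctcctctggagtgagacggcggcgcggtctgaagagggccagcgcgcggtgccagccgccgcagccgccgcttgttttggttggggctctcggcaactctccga
Pik3r1 at its upstream start, chr13:101768218-101768467, minus strand: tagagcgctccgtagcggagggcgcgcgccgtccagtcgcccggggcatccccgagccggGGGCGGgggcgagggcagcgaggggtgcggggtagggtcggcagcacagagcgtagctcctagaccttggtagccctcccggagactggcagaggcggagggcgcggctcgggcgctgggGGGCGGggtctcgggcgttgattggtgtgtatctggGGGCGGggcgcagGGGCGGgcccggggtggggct

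The printed promoters are rich in G and C, with 77.6% for Igf1r, 72.4% for Irs1 and 76.4% for the upstream start of Pik3r1. The other Pik3r1 window, which is not printed, had 42.4% G and C and no GGGCGG. Searched on both strands, GGGCGG occurred 2 times before Igf1r, 2 times before Irs1 and 4 times before the upstream start of Pik3r1. It occurred in at least 1 window of each of the 9 genes that had a promoter sequence, in 9 of their 14 windows, and in 32.7% of all 32851 promoter windows of that length. It was therefore not limited to the genes that fell. The FOXO core GTAAACA was found in 1 of the 14 windows, at Akt1, and in 3.17% of all windows, and the cAMP-response core TGACGT in 1, at Igf2r, and in 6.47% of all windows. None of the 3 printed windows held GTAAACA or TGACGT.

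The AKT kinases were the most abundant of the 10 and moved little. Akt1 (chromosome 12, 112653821 to 112674884, minus strand), the widely expressed isoform tied to growth and survival, had 297, 322 and 339 CPM in sh-Il22ra1, against 318, 365 and 396 CPM in sh-ctrl. The groups overlapped, with 3 sh-Il22ra1 libraries below every sh-ctrl library. It fell by 0.18 on the log2 scale (SE 0.0632, edgeR adjusted p = 0.0261), or 1.13-fold. The call ended when any of 4 libraries was left out, sh-Il22ra1 replicate 1 (adjusted p = 0.0628), replicate 3 of the same group (0.0629), sh-ctrl replicate 3 (0.0585) and replicate 6 of that group (0.0543), and after the length and GC correction (-0.10, adjusted p = 0.0676). Leaving out sh-ctrl replicates 1 and 4 gave -0.20 (adjusted p = 0.00310) for Akt1.

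Akt2 (chromosome 7, 27591552 to 27640826, plus strand), the isoform best known for insulin-stimulated glucose handling, gave 366, 432 and 444 CPM in sh-Il22ra1, against 355, 393 and 426 CPM in sh-ctrl. In 4 sh-Il22ra1 libraries it was above every sh-ctrl library, while replicate 1 was low. Its log2 fold change of 0.10 had a 95% interval of -0.03 to 0.24 (SE 0.0638) and did not pass (edgeR adjusted p = 0.184). Akt2 was 0.03 (adjusted p = 0.711) without sh-ctrl replicates 1 and 4, and passed at 0.22 (adjusted p = 0.000561) after the length and GC correction.

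Foxo3 was the only one of the 10 called higher, and Foxo1 gave nearly equal levels. Foxo3 (chromosome 10, 42181841 to 42276755, minus strand), a factor that drives arrest, antioxidant and autophagy genes, had 21.3, 29.8 and 30.7 CPM in sh-Il22ra1, against 12.0, 20.1 and 31.1 CPM in sh-ctrl. All 6 sh-Il22ra1 libraries lay above the sh-ctrl median, and sh-ctrl replicate 2 lay above all of them. The log2 fold change was 0.45 (SE 0.179, edgeR adjusted p = 0.0440), or 1.36-fold higher. That call was close to the threshold. It ended under 13 of 22 alternatives, among them DESeq2 (0.45, adjusted p = 0.0842), leaving out sh-ctrl replicate 1 (0.35, adjusted p = 0.0936) or replicate 4 (0.32, adjusted p = 0.0757), and leaving out both (0.18, adjusted p = 0.162); 9 single libraries ended it in all, sh-ctrl replicates 1, 3, 4 and 5 and sh-Il22ra1 replicates 2 to 6. It was 0.63 (adjusted p = 0.000165) after the length and GC correction.

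Foxo1 (chromosome 3, 52268336 to 52353221, plus strand), the FOXO factor most studied in beta cells, gave 35.7, 38.3 and 41.7 CPM in sh-Il22ra1, against 33.2, 39.1 and 44.5 CPM in sh-ctrl. The log2 fold change was -0.03, with a 95% interval of -0.19 to 0.13 (SE 0.0757, edgeR adjusted p = 0.776), and it passed under none of 22 alternatives, from -0.13 without sh-ctrl replicates 1 and 4 to 0.12 after the length and GC correction. That interval leaves out changes larger than 0.19 in size at this depth.

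**Figure D2:**
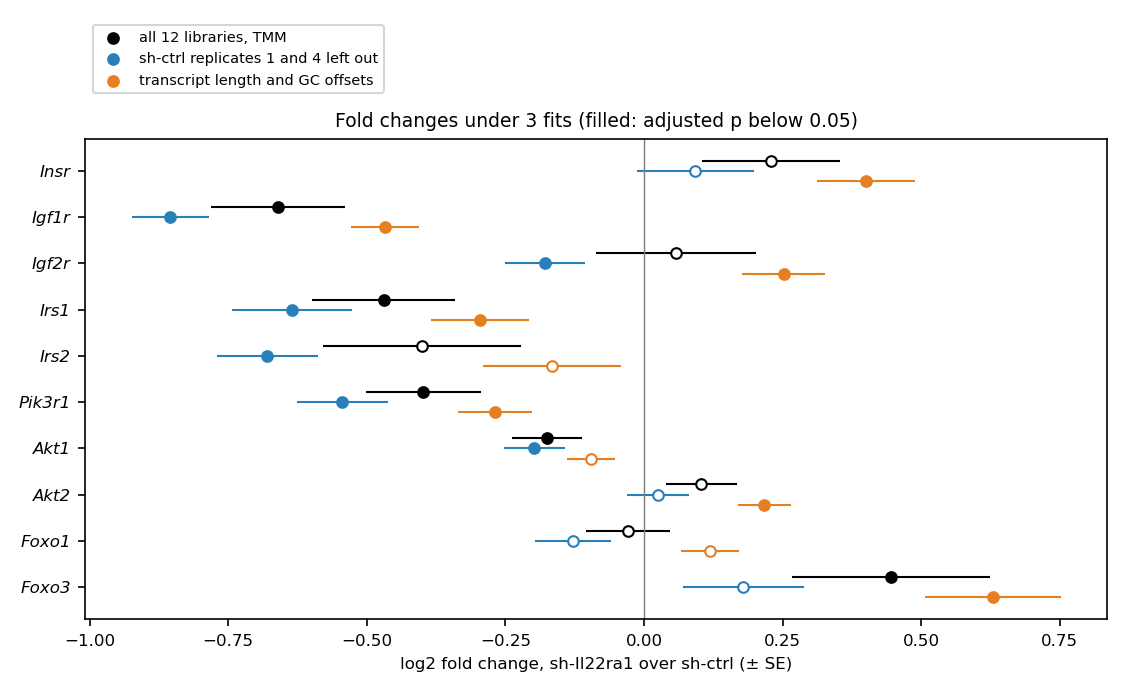
Log2 fold change of each gene, sh-Il22ra1 over sh-ctrl, with its SE, in the fit of all 12 libraries, without sh-ctrl replicates 1 and 4, and with offsets for transcript length and GC content. Filled points have adjusted p below 0.05; Igf1r, Irs1 and Pik3r1 are filled and below 0 in all 3 fits, whereas Igf2r changes side.

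Ratios within a library do not depend on library scaling, and 4 of the 5 ratios examined differed between the groups. Those of Igf2r and Insr have the same denominator, Igf1r, which was itself called lower (-0.66), so these ratios are not independent of that call. Igf2r and Insr did not pass. How often ratios of other gene pairs differed was not examined. All 924 ways of dividing the 12 libraries into equal groups gave each ratio a two-sided exact permutation p, adjusted over the 5 ratios. The ratio of Igf2r to Igf1r reads moved most clearly: on the log2 scale it was 0.60, 0.75 and 0.87 in sh-Il22ra1, against -0.35, 0.05 and 0.21 in sh-ctrl. Here the groups did not overlap, and the ratio was 1.67-fold higher in sh-Il22ra1 (permutation adjusted p = 0.0108).

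The log2 ratio of Insr to Igf1r was -3.10, -2.52 and -2.38 in sh-Il22ra1, against -3.70, -3.63 and -3.09 in sh-ctrl. It was 1.84-fold higher (permutation adjusted p = 0.0108), with sh-Il22ra1 replicate 6 just below the highest control, sh-ctrl replicate 1. Insulin and IGF-1 receptors are known to form hybrid receptors. The log2 ratio of Akt2 to Akt1 averaged 0.40 ± 0.0742 in sh-Il22ra1 and 0.12 ± 0.169 in sh-ctrl (SD, n = 6 each), 1.21-fold higher (permutation adjusted p = 0.0108). The log2 ratio of Foxo1 to Foxo3 averaged 0.46 ± 0.223 in sh-Il22ra1 and 1.01 ± 0.387 in sh-ctrl, a difference of -0.55 (permutation adjusted p = 0.0162). Without sh-ctrl replicates 1 and 4 that difference was -0.32 and did not pass (permutation adjusted p = 0.0714). For the substrates no difference passed: Irs2 to Irs1 averaged 2.21 ± 0.222 in sh-Il22ra1 and 2.08 ± 0.325 in sh-ctrl (log2; permutation adjusted p = 0.409).

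**Figure D3:**
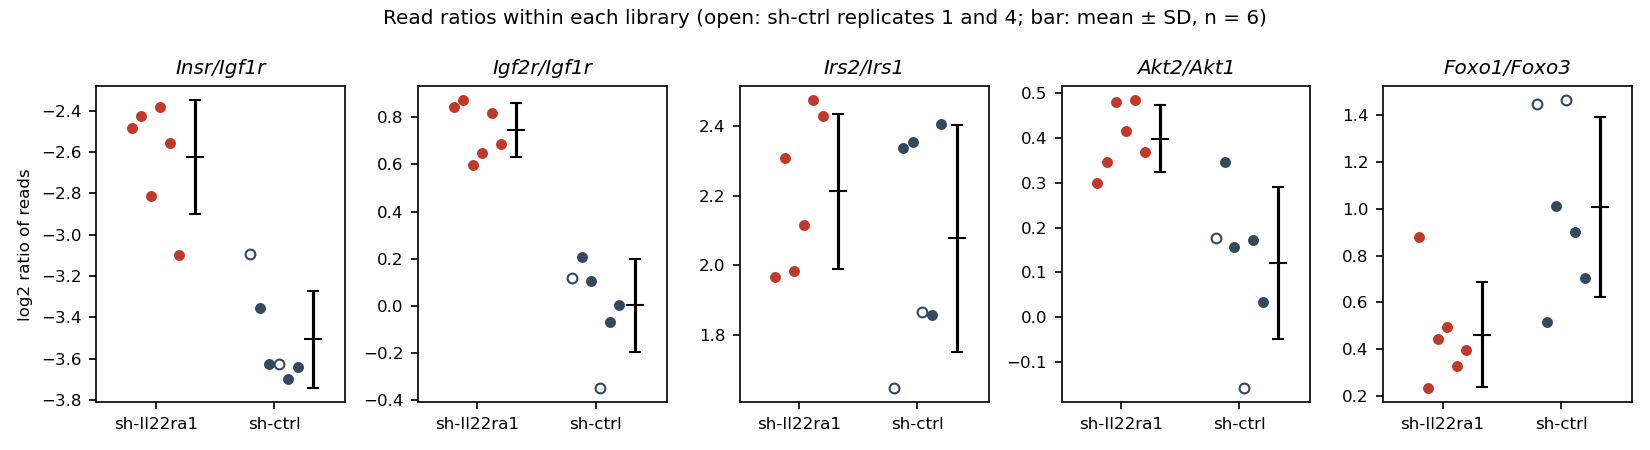
Log2 ratio of the reads of 2 genes in each library, with sh-ctrl replicates 1 and 4 open and bars giving the mean ± SD (n = 6 per group). Igf2r/Igf1r lies between 0.60 and 0.87 in sh-Il22ra1 and between -0.35 and 0.21 in sh-ctrl, while the groups overlap for Irs2/Irs1.

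Per length of exon, the order of the 10 genes was nearly the same in both groups. In CPM per kilobase of exon, sh-Il22ra1 libraries held 77.8 ± 4.34 of Akt1, 59.0 ± 3.97 of Akt2 and 25.1 ± 1.91 of Igf2r. The sh-ctrl libraries held 87.9 ± 7.51 of Akt1, 54.9 ± 4.26 of Akt2 and 24.1 ± 7.07 of Igf2r (SD, n = 6 each). The AKT kinases were thus far above their receptors. Igf1r averaged 8.32 and Irs2 7.52 in sh-Il22ra1, against 13.1 and 9.91 in sh-ctrl, and the ranges of this neighbouring pair overlapped in each group. Below them came Foxo1, Foxo3 and Pik3r1, from 2.77 to 4.42 in sh-Il22ra1 and from 2.70 to 4.51 in sh-ctrl. Insr and Irs1 were lowest, at 1.65 and 1.12 in sh-Il22ra1 and at 1.40 and 1.55 in sh-ctrl, with overlapping ranges. Pik3r1 and Foxo3 changed places between the groups, as did Insr and Irs1, but the ranges of Pik3r1 and Foxo3 overlapped in each group too.

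The genes whose log2 CPM was most like that of Igf1r over the 12 libraries were Ece1 (Pearson r = 0.990), Synpo2 (0.990) and Phactr1 (0.980). For Pik3r1, the other gene with the smallest p, they were Scaf8 (r = 0.972), Plekha5 (0.971) and Synpo2 (0.967). All 12 values share the group difference. On deviations from the group means, over the same 12 libraries, Igf1r was most like Ubr4 (r = 0.987), Gltscr1 (0.981) and Ece1 (0.974), and Pik3r1 most like Kidins220 (0.963), Eif4enif1 (0.960) and Gpld1 (0.958). These deviations include the low values of sh-ctrl replicates 1 and 4.

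Beyond the 10, 95 further genes of the pathway were listed by role, of which 80 were tested. Of these 22 rose, 25 fell and 33 did not pass, so that 58.8% were called, near the 51.9% of all tested genes. Their median log2 fold change was -0.011. The lists were chosen with earlier results of these data known, and are described by their counts and medians, with no test of a list.

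**Figure D4:**
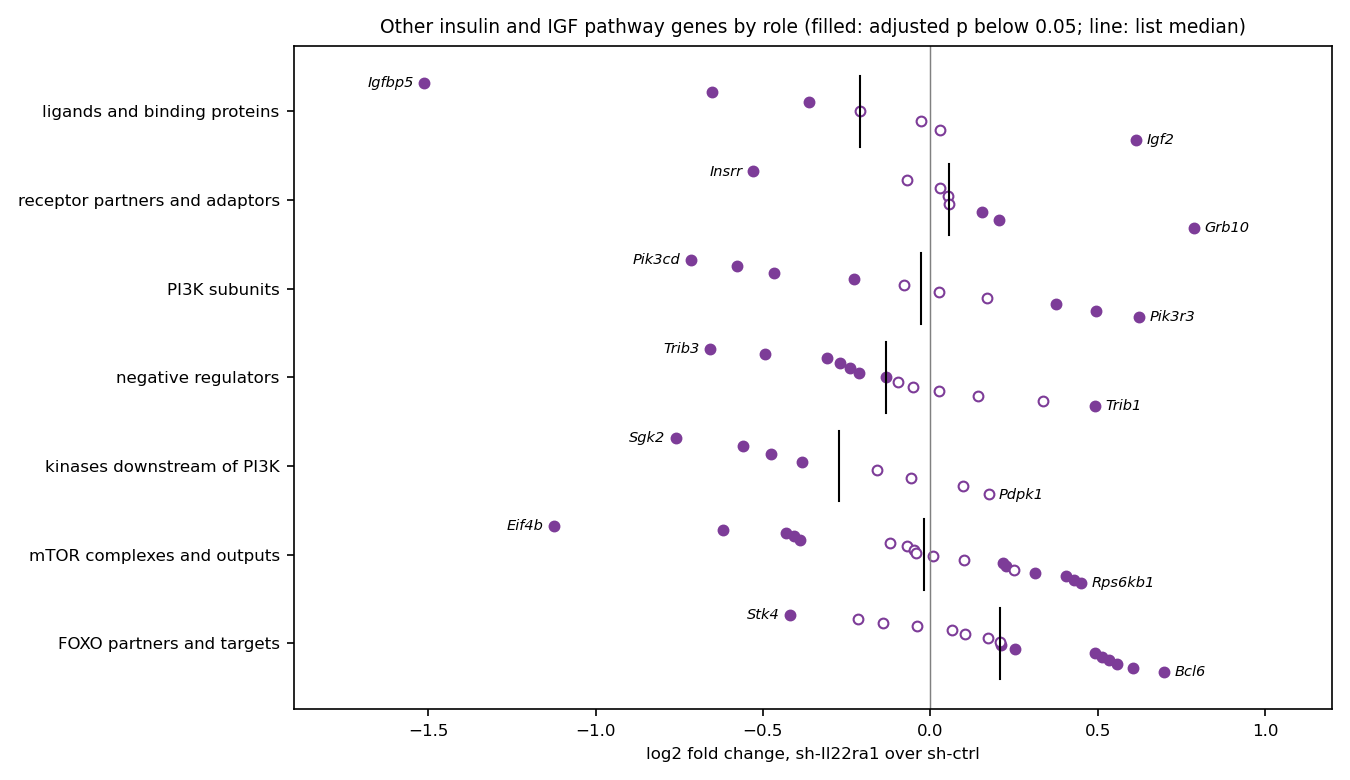
Log2 fold change, sh-Il22ra1 over sh-ctrl, of the 80 tested genes of the pathway outside the 10, by role. Filled points have adjusted p below 0.05 and vertical lines are list medians, from -0.27 for kinases downstream of PI3-kinase to 0.21 for FOXO partners and targets; Igfbp5 at -1.51 and Eif4b at -1.12 lie lowest, and Grb10 at 0.79 highest.

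Among ligands and binding proteins, Igf2 rose and 3 of 7 tested genes fell, against 25.4% higher and 26.5% lower among all tested genes. Igf2, the fetal growth factor that beta-cell lines make, was at 1568 ± 57.0 CPM in sh-Il22ra1 and 1024 ± 97.8 CPM in sh-ctrl (SD, n = 6 each), a log2 fold change of 0.61 (SE 0.0652, edgeR adjusted p = 3.63e-07). The groups did not overlap, but 64.5% of its exon bases are shared with the predicted gene Gm49394 or the antisense gene Igf2os, so its reads are uncertain. Igfbp4, which binds and holds back IGFs, fell to 138 ± 10.01 CPM in sh-Il22ra1, against 217 ± 23.1 CPM in sh-ctrl (-0.65). Ins1, an insulin gene, fell (-0.36, SE 0.0850) and so did the binding protein Igfbp5 (-1.51, SE 0.363), which was at 0.464 CPM in sh-Il22ra1 and 1.35 CPM in sh-ctrl. Ins2 gave -0.21 and did not pass (edgeR adjusted p = 0.123). Its value moved with the libraries and the fit: it was -0.11 (adjusted p = 0.236) without sh-ctrl replicate 4 and -0.08 (adjusted p = 0.402) without replicates 1 and 4, and passed at -0.28 (adjusted p = 0.0278) when sh-ctrl replicate 2 was left out and at -0.35 (adjusted p = 1.9e-05) with the length and GC correction. Igf1 had 0 reads in all 12 libraries.

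Among receptor partners, 3 of 8 tested genes rose and 1 fell. At 50% called, this list was near the 51.9% of all tested genes. Grb10, an adaptor that binds and restrains the insulin and IGF-1 receptors, was at 6.93 ± 0.504 CPM in sh-Il22ra1 and 4.01 ± 0.539 CPM in sh-ctrl (SD, n = 6 each; log2 fold change 0.79, SE 0.117, edgeR adjusted p = 1.95e-05). Sh2b1, an adaptor that promotes receptor signalling, rose slightly (0.21), a call that ended without sh-ctrl replicates 1 and 4 (0.13, adjusted p = 0.0714). Grb2, the adaptor that links receptors to RAS, rose too (0.15, SE 0.0528, edgeR adjusted p = 0.0201); this call ended without sh-Il22ra1 replicate 6 (0.14, adjusted p = 0.0532), when sh-ctrl replicate 2 was left out (0.13, adjusted p = 0.0502) and with the length and GC correction (0.10, adjusted p = 0.0696). Insrr, the insulin receptor-related receptor known as an alkali sensor, fell to 12.2 ± 0.761 CPM in sh-Il22ra1, against 17.6 ± 3.46 CPM in sh-ctrl (-0.53), and its groups did not overlap.

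Of 10 further PI3-kinase genes, 3 rose and 4 fell, against 25.4% higher and 26.5% lower among all tested genes. The risers encode regulatory subunits, whereas Pik3r1 fell. Pik3r2, which encodes p85beta, was at 336 ± 17.0 CPM in sh-Il22ra1 and 259 ± 16.3 CPM in sh-ctrl (SD, n = 6 each; log2 fold change 0.37, SE 0.0567, edgeR adjusted p = 2.46e-05). Pik3r3, which encodes p55gamma, rose (0.62, SE 0.113), with 24.3% of its exon bases shared with the predicted gene Gm49337, and Pik3r4, a partner of the class III enzyme, rose too (0.50, SE 0.0828). The class II genes Pik3c2a (-0.58) and Pik3c2b (-0.47) fell, as did the catalytic genes Pik3cb (-0.23) and Pik3cd (-0.72). Pik3ca, the catalytic subunit p110alpha, gave 0.03 (SE 0.0903, edgeR adjusted p = 0.832) and did not pass.

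Of 13 tested genes known to restrain the pathway, 7 fell and 1 rose, against 26.5% lower and 25.4% higher among all tested genes. Trib3, a pseudokinase described as an AKT inhibitor, fell to 293 ± 20.002 CPM in sh-Il22ra1, against 463 ± 52.0 CPM in sh-ctrl (SD, n = 6 each; log2 fold change -0.66, SE 0.0724, edgeR adjusted p = 5.61e-07). Its groups did not overlap; its relative Trib2 fell as well (-0.49), while Trib1 rose (0.49). Socs3, a STAT3 target that also restrains IRS signalling, fell (-0.24, SE 0.0625). The phosphatase genes Ptpn1 (-0.13), Ptpn2 (-0.27), Ptprf (-0.31) and Inppl1 (-0.21) were the others that fell, each with edgeR adjusted p from 0.0219 to 0.0492. Their alternative fits are not given here. Inppl1 shares 20.3% of its exon bases with Phox2a or Gm10602 on the other strand.

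Of the 8 kinases and effectors beside and below AKT, 4 fell and none rose; 50% called is near the 51.9% of all tested genes, of which 26.5% were lower. The SGK kinases, relatives of AKT, all fell: Sgk2 (-0.76), Sgk1 (-0.56) and Sgk3 (-0.38). Gsk3b, a kinase that AKT inhibits, was at 85.8 ± 10.1 CPM in sh-Il22ra1 and 119 ± 18.9 CPM in sh-ctrl (SD, n = 6 each; log2 fold change -0.48, SE 0.0971, edgeR adjusted p = 0.000484). Pdpk1, the kinase that activates AKT, gave 0.17 and did not pass in the fit of all libraries (edgeR adjusted p = 0.218). It passed after the length and GC correction (0.31, adjusted p = 0.000527).

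Genes of the mTOR complexes and their outputs moved both ways, with 6 of 18 higher and 5 lower. Among all tested genes 25.4% were higher and 26.5% lower. Eif4b, a translation factor phosphorylated by S6 kinase, fell to 56.3 ± 3.73 CPM in sh-Il22ra1, against 123 ± 8.45 CPM in sh-ctrl (SD, n = 6 each; log2 fold change -1.12, SE 0.0633, edgeR adjusted p = 9.76e-11). Eif4ebp1, the translation repressor that mTORC1 inactivates, fell to 260 ± 20.2 CPM, against 400 ± 36.6 CPM (-0.62). Mtor itself fell (-0.39, SE 0.105, edgeR adjusted p = 0.00446). Its value was -0.17 after the length and GC correction, and the call held under all 22 alternatives. The S6 kinase gene Rps6kb2 (0.43) and the mTORC2 subunit gene Mapkap1 (0.41) rose; Rps6kb2 shares 23.7% of its exon bases with Coro1b or Ptprcap.

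FOXO partners and targets were the list with the largest share of rises, 8 of 16 tested against 25.4% of all tested genes, with 1 fall. Cdkn1a, the cell-cycle inhibitor p21, was at 1423 ± 36.9 CPM in sh-Il22ra1 and 968 ± 60.0 CPM in sh-ctrl (SD, n = 6 each; log2 fold change 0.56, SE 0.0556, edgeR adjusted p = 1.72e-07). The mitochondrial superoxide dismutase Sod2 (0.61), the DNA-damage gene Gadd45a (0.51) and the repressor Bcl6 (0.70) rose with it. These 4 had the smallest p of the list; over the whole list the groups did not overlap in 6 of 16 genes, against 28.1% of all tested genes. Gadd45a shares 19.1% of its exon bases with a noncoding gene on the other strand. Most of these targets also answer to factors other than FOXO, p53 among them. Stk4, a kinase that phosphorylates FOXO proteins, fell (-0.42). Foxo4 (0.06) and Foxo6 (0.10) did not pass, with edgeR adjusted p of 0.554 and 0.174, and Foxo6 passed after the length and GC correction (0.34, adjusted p = 3.85e-05).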

How the data were processed

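Total RNA of 12 Min6 samples was made into paired-end libraries and sequenced, per the labels' protocols. The deposited sample files hold whole-number read counts per gene symbol, 1 file per library; HISAT2 2.0.5, HTSeq and mm10 are named in the submitters' processing notes, while annotation, strand setting and filters are not given in the sources used. A deposited table of the same libraries on a CPM scale was not used. Rows of reads assigned to no gene were left out of tests. Beside reads without an alignment, low alignment quality and no feature took 3.26% to 6.82% of a file each. Multiple alignments took 4.11% to 4.40% in sh-Il22ra1 and 3.76% to 4.12% in sh-ctrl. Ambiguous reads took 2.00% to 2.13% in sh-Il22ra1 and 1.81% to 1.93% in sh-ctrl, without overlap (exact permutation test, p = 0.00216). The part of these differences in the results was not tested.

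Counts were tested in R 4.3.3 with edgeR 4.0.16: filterByExpr (minimum count 10, minimum total 15), TMM scaling, and the quasi-likelihood test (glmQLFit, then glmQLFTest), two-sided, at a Benjamini-Hochberg adjusted p under 0.05 across 13102 genes, without a block. An SE is the log2 fold change divided by the square root of F, and levels are CPM from the cpm function of edgeR, over reads in tested genes with TMM library sizes. The biological coefficient of variation was 0.105. The fit was tested on simulated data, with 14 false calls among 13038 genes run. Simulated log2 fold changes of -0.5 and 0.5 were called in 70.2% and 70.0% of genes. The simulated counts were independent and held neither the low values of sh-ctrl replicates 1 and 4 nor an effect of transcript length. Ratios used counts + 0.5 and exact permutation tests in scipy 1.17.1. Alternatives were RLE and upper-quartile scaling, DESeq2 1.42.0, limma-voom (limma 3.58.1), no filter, a mean of at least 1 CPM, a replicate block and leaving out each library. Chosen after seeing data were leaving out sh-ctrl replicates 1 and 4, spline offsets (4 degrees of freedom each) on length and GC content, and scaling without Ins2, Iapp and Rn45s. No library was a duplicate: in the most similar pair within a group, chi-square over degrees of freedom was 3.82.

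Positions, lengths and overlaps came from GENCODE M21 (GRCm38); 23384 symbols matched by symbol, 678 by synonym and 359 not. Promoters came from RefSeq, which gave 9 of the 10 genes; Insr is named only. The 10 genes and all lists were chosen with earlier results of these data known. Named are the 10, Il22ra1, up to 4 called genes of each list with the smallest p, the genes the rule sets by name (Ins1, Ins2, Igf1, Igf2, Pik3ca, Pdpk1, Mtor, Foxo4, Foxo6, Grb10, Socs3 and Trib3) and the genes most like Igf1r and Pik3r1; other genes were named after their values were seen. Some genes of the lists are not reported here, and the counts leave them out.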

Additional observations from a re-analysis of the deposited data

Results flagged for a closer look

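In each group of 6 libraries, a value was marked when its gap to the nearest other exceeded 0.625 of the group's range. This marked 6 of 102 groups of values, and chance marks about 1 in 20. Among the 10 genes, Insr was lowest in sh-Il22ra1 replicate 6, at 17.3 CPM, with the next library at 22.5 CPM, and Akt2 was lowest in sh-Il22ra1 replicate 1, at 366 CPM, with the next at 418 CPM. Without sh-Il22ra1 replicate 1 the log2 fold change of Akt2 was 0.14 (edgeR adjusted p = 0.0648), and without replicate 6 that of Insr was 0.28 (edgeR adjusted p = 0.0630), so neither passed.

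Among the other pathway genes, Grb2 was lowest in sh-Il22ra1 replicate 2 (89.8 CPM), Pik3r4 in sh-Il22ra1 replicate 4 (39.0 CPM) and Trib1 in sh-Il22ra1 replicate 2 (118 CPM). Foxo4 was highest in sh-Il22ra1 replicate 6 (26.7 CPM).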

How the results depend on the processing

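Igf1r, Irs1 and Pik3r1 passed in the same direction under all 22 alternatives. Of the 10 genes, the count called ranged from 3 to 6 when 1 library was left out, against 5; without sh-ctrl replicate 3 or sh-Il22ra1 replicate 3 it was 3. The count called higher ranged from 0 to 2 when 1 library was left out, was 0 under DESeq2, with a mean of at least 1 CPM, with scaling without Ins2, Iapp and Rn45s and without sh-ctrl replicates 1 and 4 together, and was 4 with the length and GC offsets. Log2 fold changes that changed sign when 1 library was left out ranged from -0.065 to 0.16 for Igf2r (below 0 without sh-ctrl replicate 1 or 4), from -0.085 to 0.013 for Foxo1 (above 0 without sh-ctrl replicate 2 or 6) and from -0.043 to 0.062 for Pik3ca (below 0 without sh-Il22ra1 replicate 1); none of these passed. Foxo1 was 0.12 with the length and GC offsets. Without sh-ctrl replicates 1 and 4, Igf2r was -0.18, Pdpk1 -0.011 and Foxo4 -0.017. The log2 ratio of Irs2 to Irs1 was then -0.026, and that of Foxo1 to Foxo3 -0.32. The causes were not tested. Replicate numbers are not said to pair libraries, and same-numbered libraries had correlations of -0.03 to 0.23. With the number as a replicate block, 3463 genes were higher and 3566 lower, and the calls of the 10 genes were the same. A sign-flip test over the 6 pairs, whose smallest p is 0.03125, gave adjusted p of 0.0521 for Insr to Igf1r (0.88), Igf2r to Igf1r (0.74) and Foxo1 to Foxo3 (-0.55) and 0.0781 for Akt2 to Akt1 (0.28). Among the 10 genes Irs1 had the fewest reads, 133 to 276 per library; of the pathway genes named, Igfbp5 had 1 to 26.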

Other observations

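Genes of the pathway below the low-count filter are given as reads only. Klf15, a factor of the fasting response, had 67 reads over the 6 sh-Il22ra1 libraries (6 or more in each) and 12 over the 6 sh-ctrl libraries (4 or fewer in each). The ubiquitin ligase gene Trim63, known as a FOXO target in muscle, had 42 reads in sh-Il22ra1 and 13 in sh-ctrl, with overlapping libraries. Pck1, a gluconeogenic enzyme gene, had 17 reads in sh-Il22ra1 and 8 in sh-ctrl. Inpp5d (61 in sh-Il22ra1 against 53 in sh-ctrl), Igfbp6 (14 against 13) and G6pc (5 against 1) also had more reads in sh-Il22ra1. Others had fewer there: Enpp1 (38 in sh-Il22ra1 against 55 in sh-ctrl), Igfbp2 (44 against 52) and Igfbp3 (19 against 27). So did Gab1 (14 against 22), Cav1 (9 against 17) and Igfbp1 (0 against 1). Pdk4 and Irs4 had 0 reads in every library. These differences were not tested.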
